A study of Mus musculus with 4 samples.

Results

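A set of 10 genes of the nuclear receptor and lipid handling machinery was followed in maps of open chromatin from mouse macrophages. They were Pparg, Ppard, Nr1h3, Nr1h2, Rxra, Abca1, Abcg1, Srebf1, Fasn and Plin2, that is 10 of the 21887 protein-coding genes on the autosomes, X and Y. They were chosen by name, and the data for each are all peaks within its gene span plus 10 kb on each side, called its locus here, and in the flank from 10 to 50 kb. The method was ATAC-seq, in which the transposase Tn5 cuts and tags accessible DNA, and a peak is a stretch where such cuts pile up. The cells were bone marrow-derived macrophages on a C57BL/6 background, all grown for 5 days with 10% M-CSF, and 50000 cells went into each library. The 4 groups were Slc6a8-/y macrophages (KO) given IL-4 at 10 ng/mL for 6 h, untreated KO macrophages, wild-type (WT) macrophages given the same IL-4, and untreated WT macrophages. Slc6a8 lies on the X chromosome and encodes the creatine transporter, and the study asked how accessibility changes in polarizing macrophages that lack creatine. Each group held 1 library, and the sources used here do not say whether it came from 1 animal or a pool.

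The receptors come first in this network. Pparg and Ppard encode the fatty acid sensors PPAR gamma and PPAR delta, and Nr1h3 and Nr1h2 encode the oxysterol sensors LXR alpha and LXR beta. Each binds DNA together with RXR alpha, the product of Rxra. In macrophages the LXRs are known to drive Abca1 and Abcg1, exporters of cholesterol to lipoprotein acceptors, and Srebf1, whose product SREBP-1 drives fatty acid synthesis through genes such as Fasn, the fatty acid synthase. Plin2 encodes perilipin 2, a coat protein of lipid droplets and a known PPAR target. PPAR gamma is also known for its part in alternative activation, the macrophage state that IL-4 induces through STAT6.

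The promoters of 3 genes turned out to carry almost the same run of bases, and they are shown first because their peaks fell in different libraries. Each sequence is the 250 bases before a start listed by RefSeq on GRCm38.p6, the assembly with the coordinates of mm10, read 5′ to 3′ on the gene's own strand. Capitals mark every match to a searched motif on either strand. They are chr4:53159896-53160145 for Abca1, chr11:120824548-120824797 for Fasn and chr11:60210472-60210721 for the inner start of Srebf1, all on the minus strand.
Abca1: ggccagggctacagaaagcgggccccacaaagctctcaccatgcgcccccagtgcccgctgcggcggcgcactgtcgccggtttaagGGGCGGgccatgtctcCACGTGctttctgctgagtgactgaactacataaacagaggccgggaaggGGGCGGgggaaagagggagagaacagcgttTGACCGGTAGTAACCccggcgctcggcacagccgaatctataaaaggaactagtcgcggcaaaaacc
Fasn: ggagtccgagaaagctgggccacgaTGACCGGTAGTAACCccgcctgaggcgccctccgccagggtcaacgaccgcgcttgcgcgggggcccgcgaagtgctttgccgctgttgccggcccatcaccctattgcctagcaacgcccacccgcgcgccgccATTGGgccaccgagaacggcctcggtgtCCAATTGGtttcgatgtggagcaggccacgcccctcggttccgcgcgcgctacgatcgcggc
Srebf1, inner start: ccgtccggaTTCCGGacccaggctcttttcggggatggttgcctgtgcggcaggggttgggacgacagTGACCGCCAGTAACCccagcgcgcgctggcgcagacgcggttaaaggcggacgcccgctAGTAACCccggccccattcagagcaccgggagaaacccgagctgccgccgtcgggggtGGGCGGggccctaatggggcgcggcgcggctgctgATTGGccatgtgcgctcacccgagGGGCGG

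The shared run consists, on the opposite strand, of GGTTAC and, after 4 further bases, GGTCA. It is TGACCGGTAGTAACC in both Abca1 and Fasn and TGACCGCCAGTAACC in Srebf1. As background, LXR and RXR are known to bind such imperfect direct repeats whose units lie 4 bases apart. The run ends 53 bases before the Abca1 start, 211 before the Fasn start and 168 before the inner Srebf1 start. Of the 21263 protein-coding promoters of the same length, 8 hold these letters at this spacing (0.0376%), and 3 of those 8 are the ones printed. The pattern was picked after these sequences had been read, so the small share is a description of how rare the letters are and not a result. The deposited peaks covered all 15 bases of the run at Abca1 in KO untreated alone, at Fasn in both KO libraries, and at Srebf1 in WT IL-4 and WT untreated. At Fasn the WT untreated peak (120823938 to 120824755) stopped just short of the run (120824758 to 120824772).

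The libraries differed in size, and this touches every count that follows. They held 10443 peaks in KO IL-4, 13714 in KO untreated, 9930 in WT IL-4 and 17339 in WT untreated. Each peak carries the authors' score, from 50 to 3100, with medians of 86.1, 94.3, 85.5 and 101.1 in that order of libraries. Scores rank peaks within a library, so a score is read through its percentile among the peaks of its own list, and not between libraries. Read depth is unknown. No library had a peak within 10 kb of Slc6a8, which therefore gives no check of the genotype labels. Of 10 macrophage markers, 6 had a locus peak in KO IL-4, 8 in KO untreated, 8 in WT IL-4 and all 10 in WT untreated. A start peak, within 1 kb of the gene start, stood at 2, 4, 2 and 7 of them in the same order. Over all protein-coding genes the locus shares were 44.1%, 51.6%, 43.3% and 56.0%, and the start shares 29.8%, 35.8%, 28.9% and 39.3%. Of 7 adipocyte markers, which were included because fat cells use many of the same lipid genes, 0 had a start peak in any library, and 0, 2, 1 and 4 had a locus peak in the same order. Fibroblast markers were without a locus peak in all 4 libraries. T cell, B cell and neutrophil markers had 0 start peaks in KO IL-4, KO untreated and WT IL-4, and 1 each in WT untreated. Locus peaks stood at 2, 3, 3 and 3 of 6 T cell markers, 1, 1, 1 and 3 of 5 B cell markers and 1, 1, 0 and 2 of 6 neutrophil markers, and their part in the results was not tested. With 1 library per group no difference can be set against replicate error, so no p-value is given, and each comparison is between libraries and not between conditions.

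Peaks at these 10 genes were most numerous in WT untreated, the library with the most peaks. Within 10 kb there were 7 peaks in KO IL-4, 11 in KO untreated, 8 in WT IL-4 and 18 in WT untreated. They touched 5, 8, 6 and 9 of the 10 loci in that order, beside 44.1%, 51.6%, 43.3% and 56.0% of all protein-coding genes. With the 50 kb flanks there were 16, 21, 15 and 30 peaks, at 8, 9, 7 and 10 loci, beside 63.9%, 68.9%, 62.8% and 71.9% of all genes. A peak within 1 kb of a gene start, called a start peak here, stood at 2 of the 10 in KO IL-4 (Fasn and Plin2), at 4 in KO untreated (Abca1, Srebf1, Fasn and Plin2), at 2 in WT IL-4 (Srebf1 and Plin2) and at 5 in WT untreated (Ppard, Nr1h2, Srebf1, Fasn and Plin2). The same count over all genes came to 29.8%, 35.8%, 28.9% and 39.3%. The counts of start peaks lie near these shares. Those of loci are above their background in all 4 libraries, by little in KO IL-4 and most so in KO untreated and WT untreated. No intervals were computed for these counts out of 10, so the gaps are a description. The background holds genes of any length, while the member spans ran from 4.35 to 129.5 kb. Of the 23 locus regions, 4 lay within 1 kb of the start of another gene (Madd, Acp2, Pold1 and Dus1l). The part of span length and of these neighbours was not tested. Plin2 was the only one of the 10 with a start peak in all 4.

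**Figure D1:**
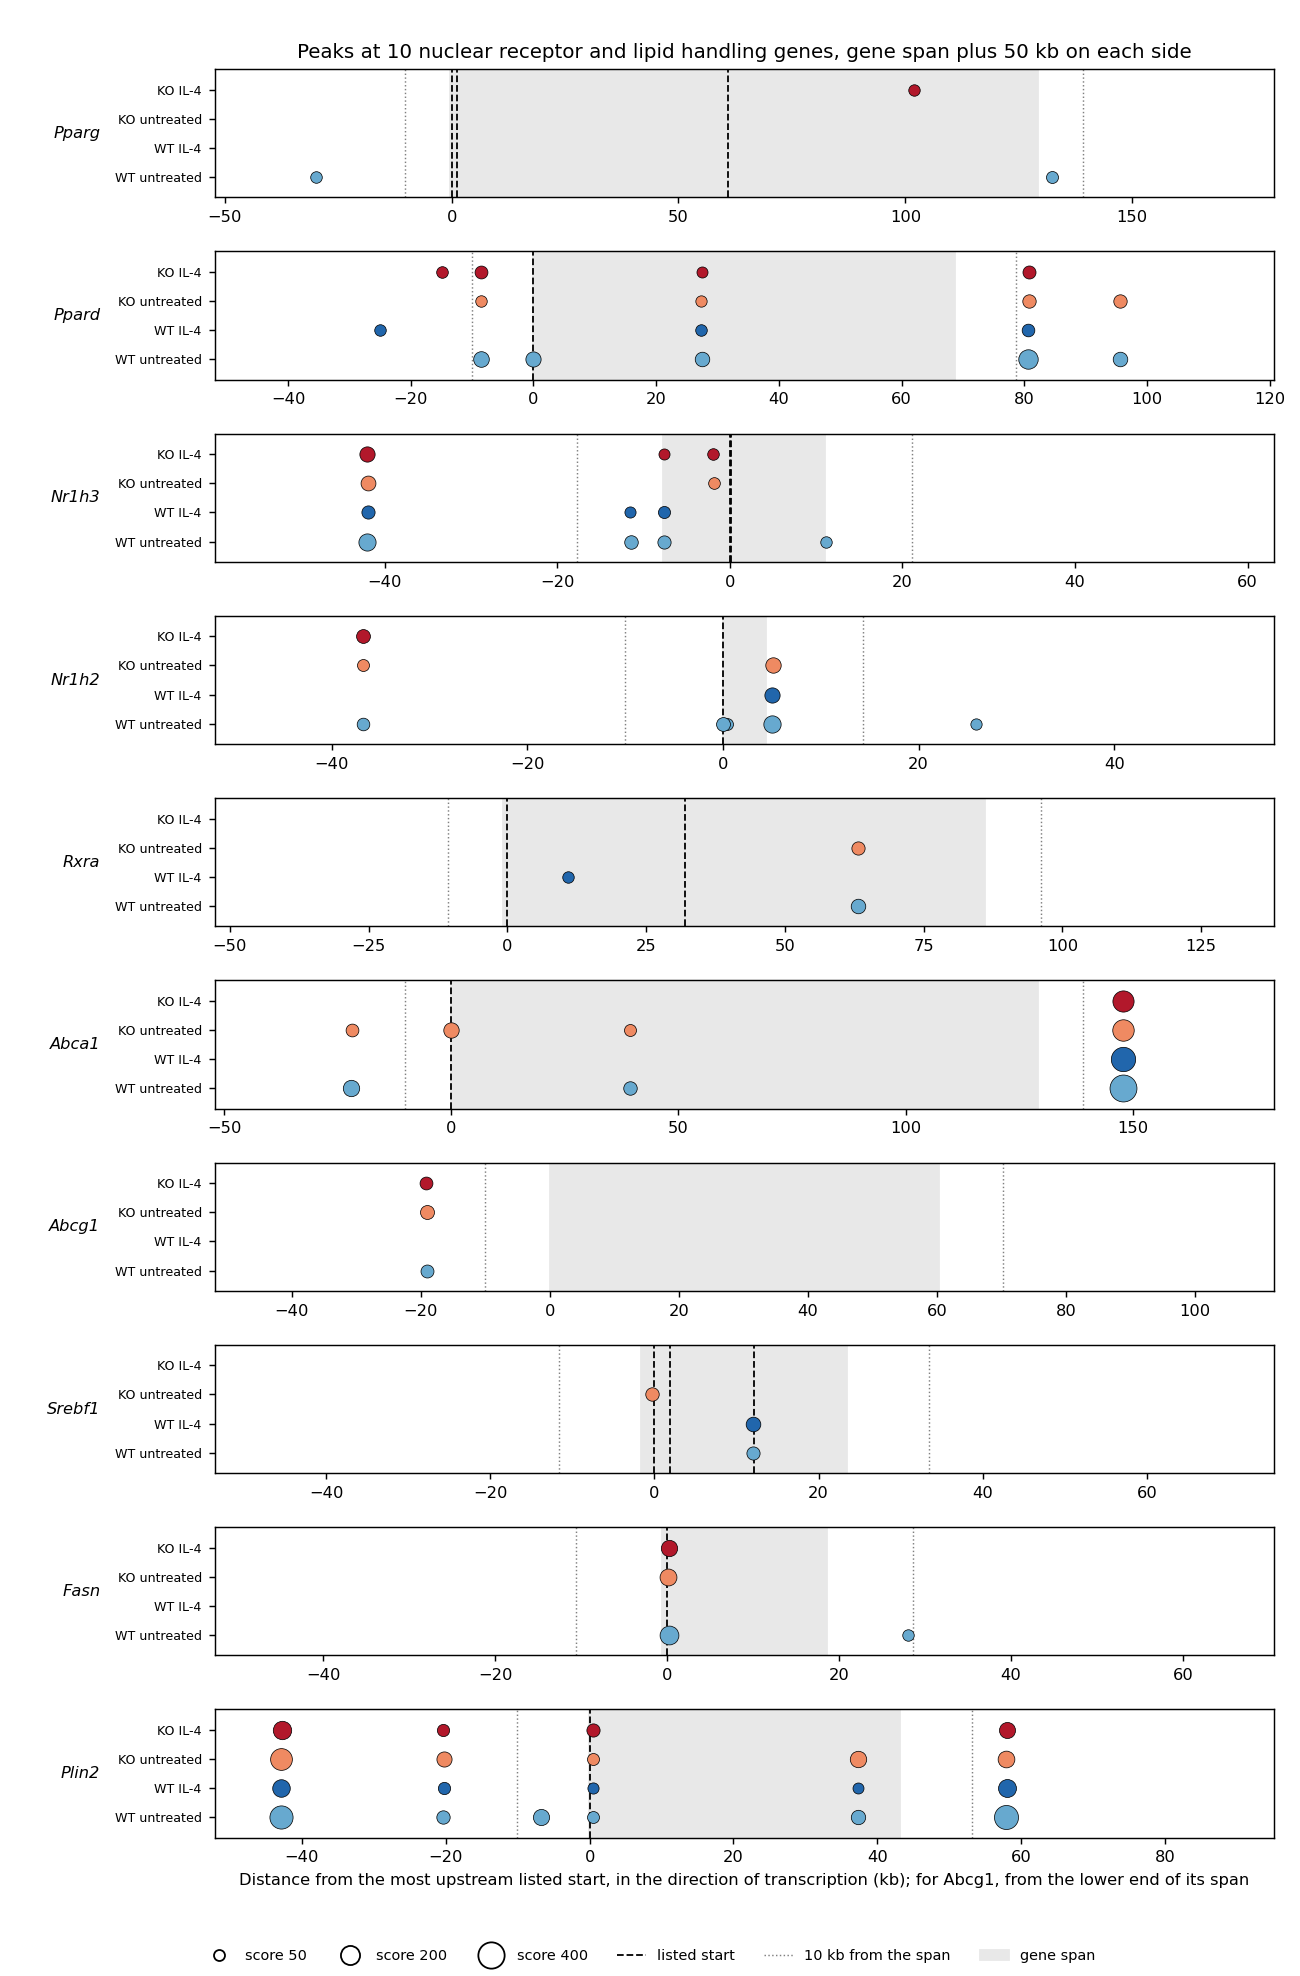
Each panel shows 1 gene, with distance in kb along the direction of transcription on the horizontal axis and 1 row per library, and each point is a peak whose area grows with the authors' score. The KO IL-4 rows hold 16 points in all, KO untreated rows 21, WT IL-4 rows 15 and WT untreated rows 30. The grey band is the gene span, dashed lines are listed starts and dotted lines mark 10 kb from the span.

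Peaks within 10 kb of these genes ranked low in the IL-4 lists and nearer the middle in the untreated lists, and in each library the median in the flanks was higher. Within 10 kb the median score was 58.6 in KO IL-4, 83.4 in KO untreated, 57.5 in WT IL-4 and 91.2 in WT untreated, at median percentiles of 17.0, 42.0, 15.1 and 43.8. From 10 to 50 kb the medians were 93.8, 103.6, 82.9 and 123.25, at percentiles of 56.0, 55.3, 47.6 and 59.9. None of the peaks within 10 kb passed the 90th percentile of its list in any library, whereas 1, 2, 1 and 3 flank peaks did. Those flank peaks lay at the starts of Nipsnap3b and Haus6 and 42352 bp before the Plin2 start. In all, 5 of the 14 flank regions lay within 1 kb of another gene's start (Def6, Fance, Rpl10a, Nipsnap3b and Haus6). The window edge itself cuts between such peaks. The outermost WT untreated peak still inside 10 kb of Fasn scored 57.0 at 9339 bp, and the first outside 10 kb of Ppard scored 207.7 at 11466 bp.

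Pparg, whose receptor is the one most closely tied to alternative activation, had few peaks in these lists and none at its 3 listed starts. A peak inside its span (chromosome 6, 115462896 to 115463298) was listed in KO IL-4 with a score of 56.8, percentile 13.9, and in no other library. A peak 2940 bp beyond the 3′ end (115493344 to 115493784) was listed in WT untreated alone, with a score of 64.2 at percentile 19.6. KO untreated and WT IL-4 had no peak within 50 kb of the gene. Unmatched peaks are common at such scores. Among KO IL-4 peaks of that score class, 40.8% had no counterpart in KO untreated and 59.3% none in WT IL-4.

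Ppard was open in its body in all 4 libraries and at its start in WT untreated alone. The body peak, 26936 bp into the gene (chromosome 17, 28259690 to 28260414), scored 51.0 in KO IL-4, 54.6 in KO untreated, 58.1 in WT IL-4 and 105.4 in WT untreated, at percentiles 2.16, 8.41, 16.2 and 52.3. It was near the bottom of the list in the first 3 libraries and in the middle in WT untreated. The start peak (28232486 to 28232780) was listed in WT untreated with a score of 118.4, percentile 58.5. Another peak 8287 bp before the start, inside the span of the neighbour Def6, scored 77.7 in KO IL-4, 57.1 in KO untreated and 125.6 in WT untreated, and WT IL-4 had none there. In the flank, the peak at the start of Fance was in all 4 libraries.

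Nr1h3, the LXR alpha gene, showed a region that both KO libraries held and neither WT library did. It lay inside the annotated span, 1646 bp before the nearest listed start (chromosome 2, 91196762 to 91197292), and scored 58.6 in KO IL-4, against 59.8 in untreated KO, percentiles 17.0 and 16.6. It was the only one of the 23 locus regions with that pattern. Among KO peaks of the same score class, 59.3% had no counterpart in WT after IL-4 and 37.5% had none untreated. The opposite pattern, present in both WT libraries and neither KO library, occurred 3404 bp beyond the upstream end of the span (91206233 to 91206935), where WT IL-4 scored 52.4 and WT untreated 88.6. A region at the upstream end of the span, which is also the start of Acp2, scored 51.3 in KO IL-4, 65.8 in WT IL-4 and 83.5 in WT untreated. At the other end of the span, 742 bp from the start of Madd, WT untreated alone had a peak of 56.7. No library had a peak within 1 kb of the 2 listed Nr1h3 starts. The region at the Acp2 start covers the annotated upstream end of the Nr1h3 span, and it was not assigned to either gene. It lies 7338 bp before the nearest listed Nr1h3 start.

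Nr1h2, the LXR beta gene, is small, and its promoter was listed as open in WT untreated only. The promoter is shown because it holds more matches to TTCCGG, the core of ETS family sites, than any other of the 15 member promoters (chr7:44553966-44554215, minus strand).
Nr1h2: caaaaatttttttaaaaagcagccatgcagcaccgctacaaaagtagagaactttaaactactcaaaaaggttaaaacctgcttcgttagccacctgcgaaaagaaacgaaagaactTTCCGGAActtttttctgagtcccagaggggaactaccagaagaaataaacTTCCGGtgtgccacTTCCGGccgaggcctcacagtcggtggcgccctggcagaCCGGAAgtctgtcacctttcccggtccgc

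The peak over the Nr1h2 start (chromosome 7, 44553771 to 44554114) scored 93.7 in WT untreated, percentile 45.5, and a second one 285 bp into the gene scored 63.4, percentile 18.5. The first covered 149 of the 250 printed bases. KO IL-4, KO untreated and WT IL-4 had no peak at either place. The higher peak of the locus lay 365 bp beyond the 3′ end at the start of Pold1, the catalytic subunit of DNA polymerase delta, and so cannot be assigned to Nr1h2. It scored 121.8 in KO untreated, 118.6 in WT IL-4 and 159.4 in WT untreated, and KO IL-4 had none. Among WT IL-4 peaks of that score class 5.44% were without a counterpart in KO IL-4.

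Rxra, the shared partner of all 4 receptors above, had no start peak in any library and no peak within 50 kb in KO IL-4. A peak in its body, 30841 bp past the nearest listed start (chromosome 2, 27740133 to 27740709), scored 83.4 in KO untreated and 105.6 in WT untreated, percentiles 42.0 and 52.4. It was in both untreated libraries and neither IL-4 library. WT IL-4 had a single peak elsewhere in the body (27687871 to 27688320), with a score of 57.0 at percentile 14.0.

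Abca1 had a promoter peak in KO untreated alone. It covered the start and all 250 bases printed above (chromosome 4, 53159813 to 53160151) and scored 121.4, percentile 63.9. At that score a missing counterpart is uncommon against WT untreated, where 2.33% of KO untreated peaks of the class had none, and less so against KO IL-4, where 19.3% had none. A second locus peak, 39016 bp into the gene (53120345 to 53120879), scored 64.2 in KO untreated and 87.6 in WT untreated. In the flank a peak 21725 bp before the start scored 76.2 in KO untreated and 140.5 in WT untreated. These regions were listed in both untreated libraries and in neither IL-4 library, as was the Rxra body peak. After IL-4, the Abca1 locus had no peak in KO or in WT. The highest flank peak stood in all 4 libraries at the start of Nipsnap3b, with scores of 251.6, 258.2, 338.8 and 420.8 in KO IL-4, KO untreated, WT IL-4 and WT untreated.

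Abcg1, the other exporter, had no peak within 10 kb in any library. A region 18869 bp outside its span (chromosome 17, 31038372 to 31038825) scored 77.4 in KO IL-4, 95.8 in KO untreated and 79.2 in WT untreated. WT IL-4 had no peak within 50 kb.

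Srebf1 was listed as open at one start in the WT libraries and at another in untreated KO. The gene is known to make SREBP-1 proteins from alternative first exons, and 3 starts are listed for it. At the inner start (chromosome 11, start base 60210471) the peak scored 107.4 in WT IL-4 and 82.85 in WT untreated, percentiles 65.3 and 37.9, and neither KO library had one. At the most upstream start (60222581) the peak scored 87.0 in KO untreated, percentile 44.8, and the other 3 libraries had none. The inner promoter is printed above, and the upstream one (chr11:60222582-60222831, minus strand) is given for comparison.
Srebf1, upstream start: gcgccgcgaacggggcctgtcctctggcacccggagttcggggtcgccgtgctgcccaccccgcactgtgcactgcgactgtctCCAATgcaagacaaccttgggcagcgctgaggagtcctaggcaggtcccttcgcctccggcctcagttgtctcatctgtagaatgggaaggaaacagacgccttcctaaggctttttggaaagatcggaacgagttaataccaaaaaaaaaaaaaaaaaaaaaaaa

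The upstream sequence holds 1 CCAAT match and no match to the run shared by Abca1, Fasn and the inner Srebf1 start. The inner one has a GC content of 70.8% and the upstream one 54.4%, beside a median of 55.6% over all 21263 promoters. The peaks covered 204 bases of the inner sequence in WT IL-4 and 238 in WT untreated, and 238 bases of the upstream sequence in KO untreated. Of WT IL-4 peaks in the score class of the inner start, 11.5% had no counterpart in KO IL-4, and of WT untreated peaks in its class there 49.0% had none in KO untreated. Of KO untreated peaks in the class of the upstream start, 12.1% had none in WT untreated. KO IL-4 had no peak within 50 kb of Srebf1.

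Fasn had the highest-scoring locus peak of the 10 genes in 3 libraries, over its start (chromosome 11, 120823702 to 120824948). It scored 139.6 in KO IL-4, 151.0 in KO untreated and 193.0 in WT untreated, percentiles 78.2, 74.3 and 80.4, and WT IL-4 had none. At such percentiles an unmatched peak is uncommon. Among peaks of the same class, 4.84% of WT untreated peaks had no counterpart in WT IL-4, and 6.80% of KO IL-4 peaks had none in WT IL-4. The pattern at the Fasn start, open in KO IL-4 and not listed in WT IL-4, is opposite to that at the inner Srebf1 start. Another WT untreated peak of 57.0 lay at the start of the neighbour Dus1l. With 3 CCAAT matches, the printed Fasn promoter had the most of the 15 member promoters.

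Plin2 was the one gene of the 10 with a start peak in every library. That peak (chromosome 4, 86669298 to 86669935) scored 83.3 in KO IL-4, 64.3 in KO untreated, 52.8 in WT IL-4 and 63.4 in WT untreated, at percentiles 47.8, 23.2, 6.39 and 18.6. It ranked in the lower part of every list. A body peak 37019 bp in (86632463 to 86633040) scored 141.4 in KO untreated, 50.1 in WT IL-4 and 103.0 in WT untreated, and KO IL-4 had none, an absence met by 9.91% of KO untreated peaks of that class. A peak 6533 bp before the start (86676592 to 86677048) was in WT untreated alone, with a score of 136.3 at percentile 65.9. The flanks held 3 regions in all 4 libraries. The upstream one at 42352 bp before the start scored 183.9 in KO IL-4, 266.1 in KO untreated, 164.85 in WT IL-4 and 305.2 in WT untreated, with percentiles from 85.7 to 92.5.

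**Figure D2:**
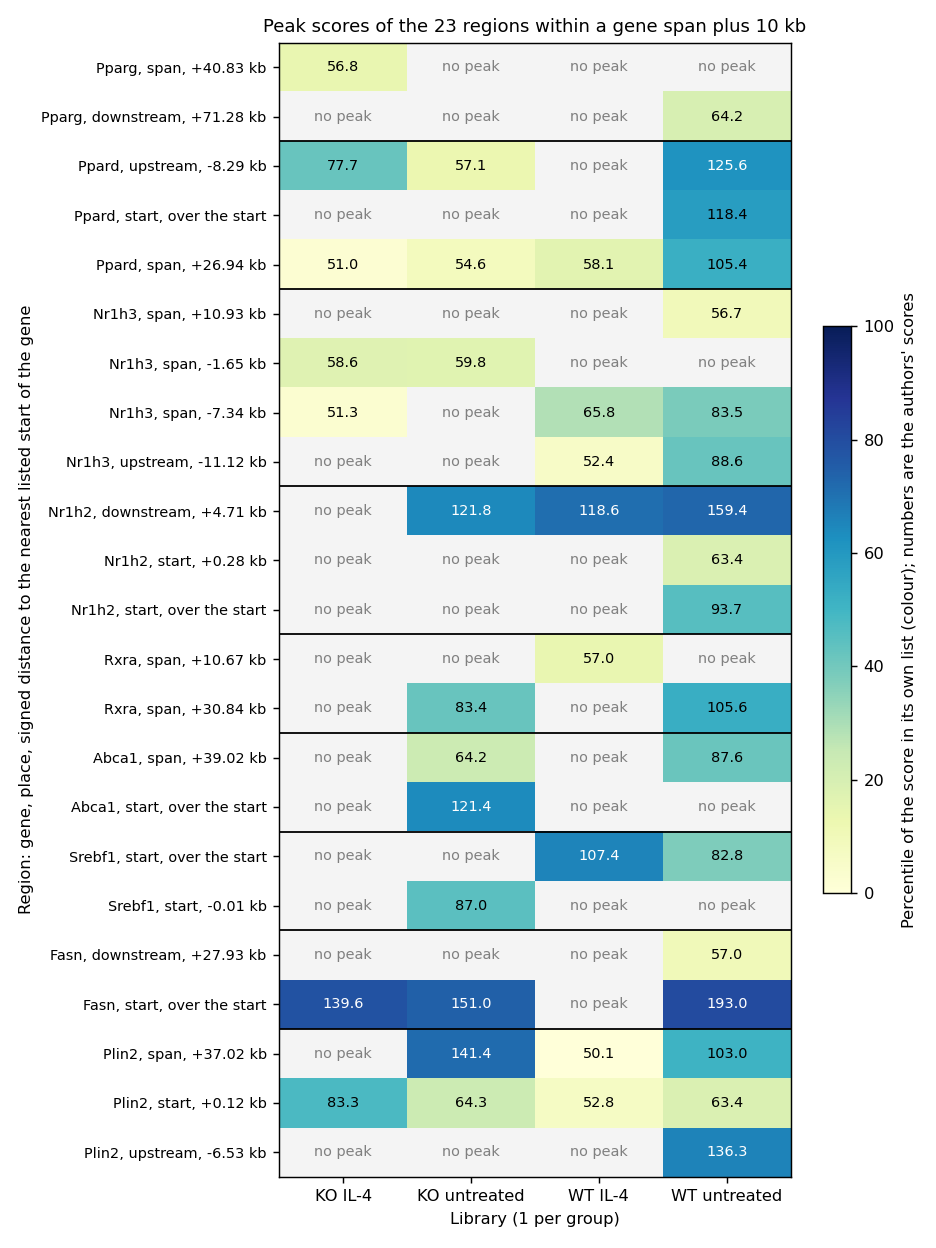
Rows are the 23 regions within 10 kb of a gene span, named by gene, place and distance to the nearest listed start of the gene, and columns are the 4 libraries. Numbers are the authors' scores and colour is the percentile within the library's own list. Of the 23 regions 2 have a peak in all 4 libraries, in the Ppard body and at the Plin2 start, and 11 have a peak in 1 library.

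With IL-4 the KO libraries differed at 7 of the 10 loci, and the share of all genes with such a difference was not computed. Here a gained peak is one of the KO IL-4 list that overlaps no KO untreated peak by 1 bp or more, a lost peak is the reverse, and later comparisons use the terms in the same way. Of the 7 KO IL-4 locus peaks 2 were gained (28.6%, interval 3.67 to 71.0), at Pparg and Nr1h3, beside 18.1% of all KO IL-4 peaks. Of the 11 KO untreated peaks 6 were lost (54.5%, 23.4 to 83.3), 2 at Abca1 and 1 each at Nr1h2, Rxra, Srebf1 and Plin2, beside 37.7% of all. The intervals are 95% Clopper-Pearson (exact) ones, which reflect counting error alone. Unmatched peaks of the same score class averaged 29.4% for the gained side and 45.1% for the lost side, and all 4 background values lie inside the intervals. In lists cut to the same length of 9930 peaks, the KO counts were 4 gained of 5 and 5 lost of 6, beside 26.5% and 26.7% over all peaks. Here and in the later comparisons, the counts from cut lists lie above the all-peak shares. A peak also counts as gained or lost there when the cut removed its counterpart. No intervals and no shares by score class were computed for the cut lists, so these gaps are a description. In the full lists Fasn and Ppard kept all their locus peaks.

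In WT, the IL-4 library lacked untreated peaks at 8 loci, again with no share over all genes computed. Of the 8 WT IL-4 peaks 1 was gained (12.5%, 0.316 to 52.7), the low Rxra body peak, beside 10.3% of all WT IL-4 peaks. Of the 18 WT untreated peaks 11 were lost (61.1%, 35.7 to 82.7), beside 47.7% of all and 56.5% on average in the same score classes. The lost ones were at Pparg, Ppard (2), Nr1h3, Nr1h2 (2), Rxra, Abca1, Fasn (2) and Plin2. In the lists of equal length the WT counts were 5 gained of 8 and 6 lost of 9, beside 26.0% gained and 25.8% lost over all peaks. The gains at Nr1h3, Srebf1 and Plin2 had counterparts in the full WT untreated list, with scores below the cut at 89.57. Only the Rxra gain had none. The excess of losses thus moved with list length, as the cut removed counterparts and low-scoring lost peaks. Loss of the Rxra body peak and of the Abca1 body peak was common to KO and WT. Such losses are ordinary at these scores, since 44.4% of KO peaks and 47.6% of WT peaks were unmatched in the classes of the Rxra peak, and 66.7% and 62.0% in those of the Abca1 peak. At Srebf1 the KO IL-4 library lacked the untreated peak at the upstream start, while the WT peak at the inner start was in both WT libraries. At Fasn the start peak was in both KO libraries and, in WT, in the untreated library alone. Whether the change with IL-4 differed between genotypes could not be tested with 1 library per group.

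After IL-4 most of these peaks were in the KO or the WT library and not in both. Of the 7 KO IL-4 peaks 4 were gained over WT IL-4 (57.1%, 18.4 to 90.1), at Pparg, Ppard, Nr1h3 and the Fasn start, beside 29.5% of all KO IL-4 peaks. Of the 8 WT IL-4 peaks 5 were lost in KO (62.5%, 24.5 to 91.5), at Nr1h3, Nr1h2, Rxra, Srebf1 and Plin2, beside 26.1% of all WT IL-4 peaks. The same score classes averaged 46.3% gained and 43.4% lost, both inside the intervals. In the lists of equal length 4 of 5 were gained and 7 of 8 lost, beside 27.5% and 27.7% of all peaks. The 3 unmatched peaks with a score over 100 were those at the Fasn start in KO and at the inner Srebf1 start and Pold1 in WT.

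Between the untreated libraries, 3 of 11 KO peaks were gained (27.3%, 6.02 to 61.0), at Nr1h3, the Abca1 start and the upstream Srebf1 start, beside 15.4% of all KO untreated peaks and 19.0% in the same score classes. Of 18 WT untreated peaks 10 were lost in KO (55.6%, 30.8 to 78.5), beside 32.1% of all and 37.4% in the same classes. They were at Pparg, Ppard, Nr1h3 (3), Nr1h2 (2), Srebf1, Fasn and Plin2. The lost start peaks were at Ppard, Nr1h2 and the inner Srebf1 start. These backgrounds too lie inside the intervals. In the lists of equal length 2 of 6 were gained and 5 of 9 lost, beside 22.1% and 21.8% of all peaks. The 4 comparisons share libraries, so their lists of genes are not independent.

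**Figure D3:**
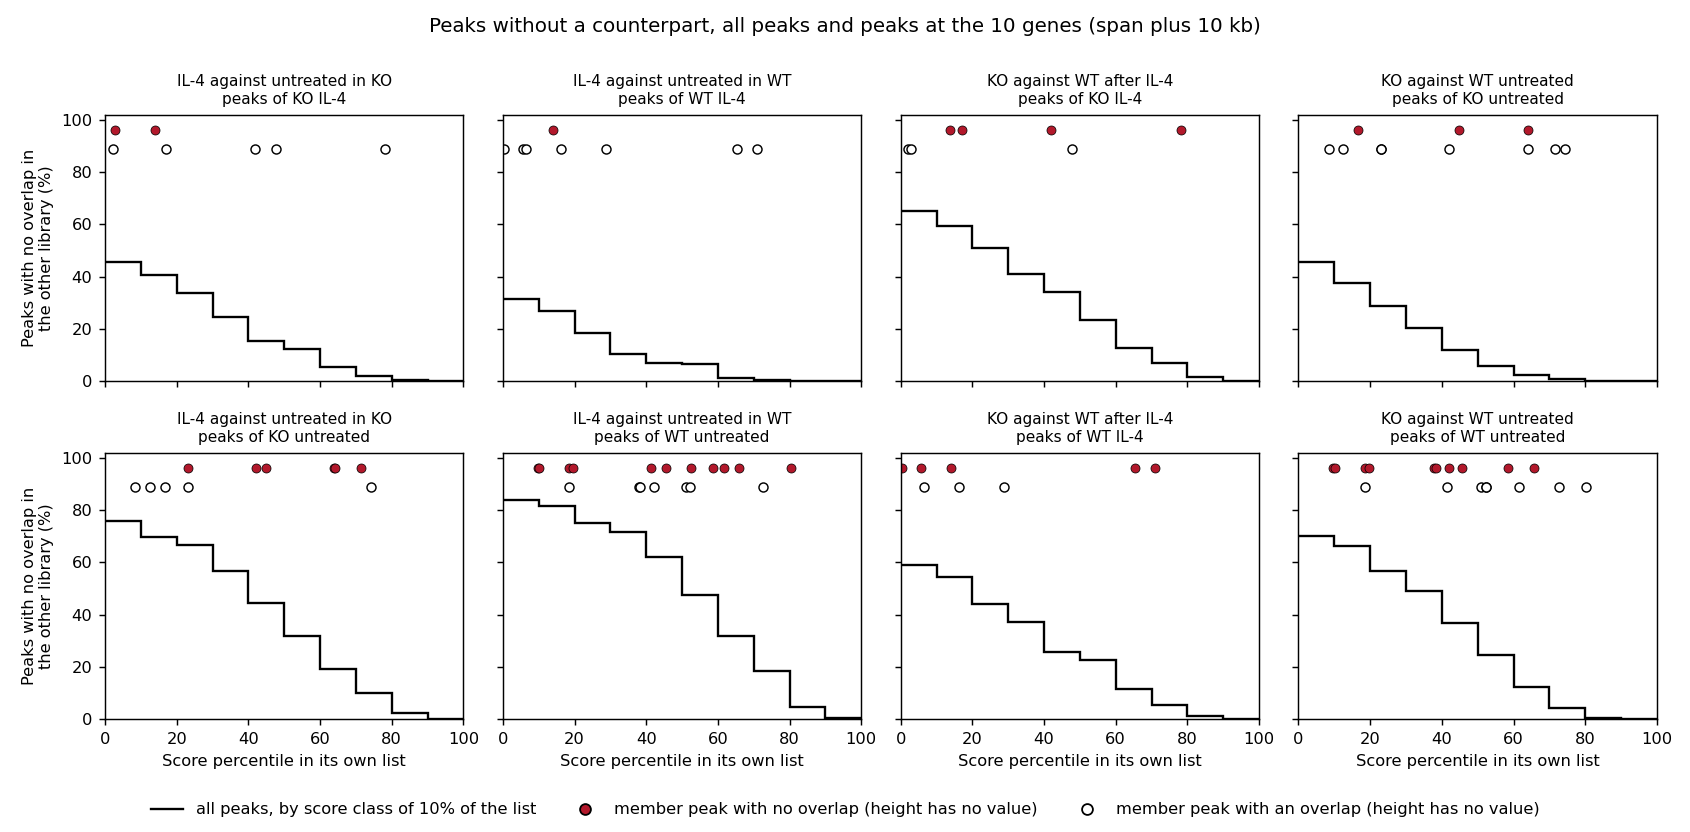
The horizontal axis is the percentile of a peak's score in its own list and the vertical axis the share of peaks without a counterpart, drawn as a line over all peaks in 10 score classes, with gained peaks in the upper row and lost peaks in the lower row for each comparison. Filled points are member peaks without a counterpart and open points those with one, and their height carries no value. The line falls with score in all 8 panels, and the KO untreated peak at the Abca1 start (percentile 63.9) stands where 2.33% of peaks are unmatched in WT untreated.

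Most start regions of these genes had a peak in 1 library. Merged over the 4 lists, 5 of the 8 start regions of the 10 genes were in 1 library (62.5%, 24.5 to 91.5), beside 17.2% of 7362 start regions over all genes. In all 4 libraries stood 1 of the 8 (12.5%, 0.316 to 52.7), beside 51.6%. Away from any listed start, 4 of 11 locus regions were in 1 library (36.4%, 10.9 to 69.2), beside 40.6% of 9280 such regions, and 1 of 11 in all 4 (9.09%, 0.230 to 41.3), beside 22.9%. In the flanks 6 of 14 regions were in all 4 libraries (42.9%, 17.7 to 71.1). The start regions are few, and the Nr1h2 and Srebf1 loci give 2 each, so they are not independent of one another and the shares are a description with no test. Over all peaks, sharing moves with score, and the part of score in these shares was not tested.

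**Figure D4:**
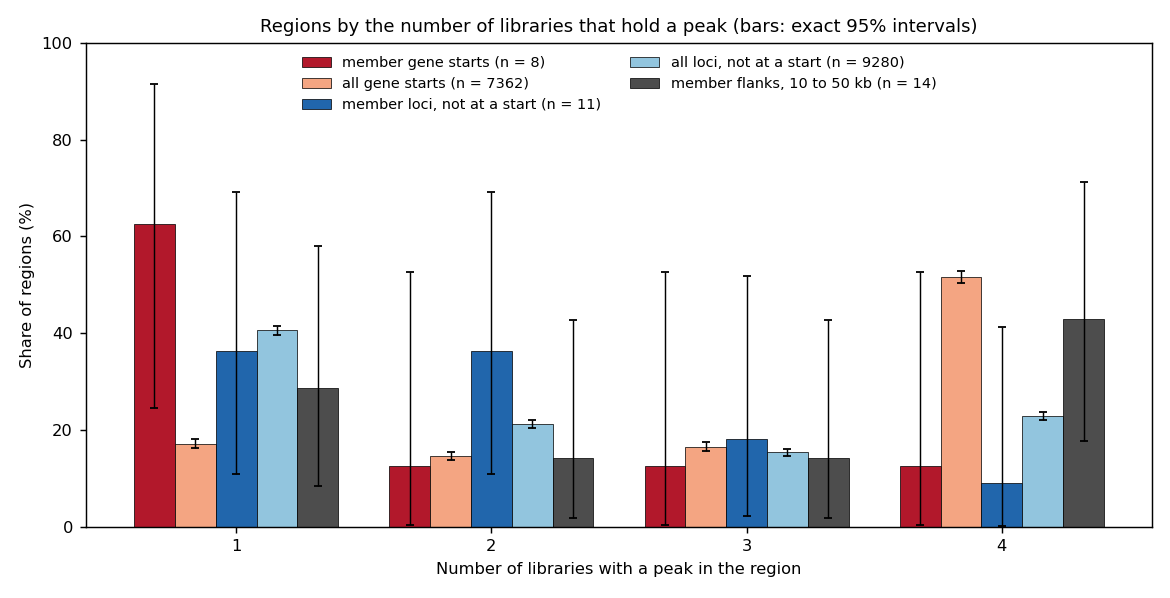
Bars show the share of regions (%) by the number of libraries with a peak in them, for start regions of the 10 genes and of all genes, locus regions away from any start of the 10 genes and of all genes, and the flanks of the 10 genes. Error bars are exact 95% intervals. Start regions of the 10 genes are mostly in 1 library (62.5%), those of all genes mostly in 4 (51.6%).

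The other searched motifs gave little that sets the 15 listed promoters of these genes apart from the rest. The set of 15 comes from 9 genes, and several starts of 1 gene lie close enough to share sequence. The receptor unit AGGTCA was found in 4 of 15 (26.7%), at Pparg, Rxra and Plin2, beside 12.8% of all promoters. Its repeat 1 base apart, the PPAR and RXR form, was in 0 of 15 and 0.0423% of all, and its exact repeat 4 bases apart was in 0 of 15 and 0 of all. The sterol regulatory element TCACNCCAC was in 0 of 15 and 1.01% of all, and the looser TCACNCNAC, which contains it, in 0 and 2.32%. GGGCGG, the GC box, was in 7 of 15 (46.7%), beside 42.6%. CCAAT, the NF-Y site, was in 7 of 15 (46.7%), beside 35.4%. TTCCGG was in 4 of 15 (26.7%), beside 15.0%. The E-box CACGTG was in 1 of 15, at Abca1, beside 6.63%. TGANTCA for AP-1, GAGGAAGT for PU.1 and TTC and GAA 4 bases apart for STAT6 were in 0 of 15, beside 6.13%, 2.23% and 5.39%. The added GGTTACT, which overlaps the longer pattern described above, was in 3 of 15, beside 1.72%. All were searched on both strands of 250 bases before the start, and a match describes letters only.

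A further 50 genes of the same pathways, in 4 lists, gave a wider view of lipid metabolism. Their loci held a peak at 38 genes in KO IL-4, 42 in KO untreated, 36 in WT IL-4 and 42 in WT untreated. Over all protein-coding genes the shares were 44.1%, 51.6%, 43.3% and 56.0%. Start peaks stood at 25, 30, 24 and 31 of the 50, beside 29.8%, 35.8%, 28.9% and 39.3%. The 50 genes were chosen with earlier results of these data known, and these gaps were not tested. The 12 genes of sterol and fatty acid synthesis had locus peaks at 12, 12, 11 and 12 genes. Of their locus peaks 2 of 16 (12.5%) were lost with IL-4 in KO and 5 of 18 (27.8%) in WT, and 0 of 12 were gained in WT. The 10 receptor partners and coregulators had many unmatched peaks in both directions. With IL-4 in KO, 11 of 15 were lost (73.3%) and 4 of 8 gained, beside 37.7% and 18.1% of all peaks. With IL-4 in WT, 15 of 23 were lost (65.2%) and 2 of 10 gained, beside 47.7% and 10.3%. In KO against WT untreated, 13 of 23 were lost (56.5%) and 6 of 15 gained, beside 32.1% and 15.4%. In KO against WT after IL-4, 6 of 10 were lost and 4 of 8 gained, beside 26.1% and 29.5%. No intervals and no shares by score class were computed for this list, so these gaps are a description. Uptake, efflux and lysosomal genes lost 9 of 20 (45.0%) with IL-4 in KO and 10 of 25 in WT, and droplet, lipolysis and oxidation genes 5 of 20 (25.0%) and 9 of 22 (40.9%). Over all 50 genes, 27 of 71 peaks were lost with IL-4 (38.0%) and 16 of 61 gained (26.2%) in KO, and 39 of 88 were lost (44.3%) and 4 of 52 gained (7.69%) in WT. Over all peaks the lost shares were 37.7% in KO and 47.7% in WT, and the gained shares 18.1% and 10.3%.

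Among them, Med1, a Mediator subunit that nuclear receptors recruit, lost the highest-scoring peak with IL-4 in KO. It stood at the start with a score of 221.5 in KO untreated and 63.6 in WT untreated, and 2.41% of KO untreated peaks of its class were without a counterpart in KO IL-4. Soat1, which esterifies cholesterol, lost a peak of 113.9 in its body in the same comparison, in a class where 19.3% had none. In WT, lost peaks with high scores were at Soat1 (142.5) and Dgat2, an enzyme of triglyceride synthesis (134.05). Both fell in a class where 31.8% had none. The highest gained scores with IL-4 were low, at Elovl6 (75.0) and Cpt1a (66.4) in KO and at Ppargc1a (64.3), Lipe (62.4) and Cpt1a (51.4) in WT. The Cpt1a region, about 2 kb from the start of this gene of mitochondrial fatty acid import, was thus in both IL-4 lists and neither untreated list. Its percentiles were 28.7 in KO IL-4 and 3.05 in WT IL-4. Unmatched peaks are common there, since 33.8% and 31.6% of peaks of those score classes had no untreated counterpart.

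Against WT IL-4, the KO IL-4 library gained peaks at Cpt1a (114.0), at the start of Scap, the escort of SREBP (89.6), and at Ppara (82.3). In their score classes 12.6%, 23.3% and 34.3% of peaks had no counterpart. It lacked WT IL-4 peaks at Ncoa3 (82.65), Ppargc1a (64.3) and the start of Rxrb, another RXR (64.1). The class shares there were 25.8%, 44.2% and 44.2%. Against WT untreated, the KO untreated library gained peaks near the start of Ncor1 (86.7), near Dgat2 (72.0) and in Srebf2 (65.65). Their class shares were 12.1%, 20.4% and 28.8%. It lacked WT untreated peaks near Dgat2 (134.05), in Msr1, a scavenger receptor (131.9), and near Med1 (124.3), all in a class with a share of 12.5%. Over the 50 genes, 20 of 61 peaks were gained (32.8%) and 12 of 52 lost (23.1%) after IL-4, beside 29.5% and 26.1% of all peaks. Untreated, 17 of 71 were gained (23.9%) and 32 of 88 lost (36.4%), beside 15.4% and 32.1%. In the counts of locus peaks per library, Rxrb matched Rxra and Srebf1, with 0 peaks in KO IL-4 and 1 in each other library. Ncor1 matched Fasn, with 1 in KO IL-4, 1 in KO untreated, 0 in WT IL-4 and 2 in WT untreated. These matches are of counts alone. The Rxra peak in WT IL-4 lay apart from that in the untreated libraries, and the Srebf1 peak in KO untreated apart from that in WT. How many of all genes have such counts was not computed.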

How the data were processed

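The deposited files were 4 peak lists, 1 per library, each giving positions and the authors' score per peak. Per the submitters' processing notes, the build was mm10 and the tools named were HOMER, MACS 1.4.2 and Bowtie2 2.2.5, with no parameters or roles, and no header states the unit of the score. Depth is unknown, and peak number, width and score all move with it. No values were altered.

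Gene spans came from RefSeq for GRCm38.p6 and listed starts from its promoter table, which held 15 starts of 9 of the 10 genes. All genes were matched by symbol. Overlap of at least 1 bp was counted as shared, a start peak lay within 1 kb, and backgrounds were all peaks, peaks of the same score class (10 per list) and all protein-coding genes. Merged regions joined overlapping peaks of the 4 lists. Shares have exact Clopper-Pearson 95% intervals. With 1 library per group no test was run.

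The members and gene lists were chosen with earlier results of these data known. All 10 members are named. Of the 50 other lipid genes, up to 3 per direction and comparison with the highest-scoring unmatched peak are named, and those whose 4 peak counts equal a member's. Results for some of these genes are left out. Of the motifs, 12 were planned and 2 were added after the promoters were read. Alternatives were reciprocal overlap of 50%, a gap of 500 bp, lists cut to their top 9930 peaks by score, a score of at least 100, 50 kb flanks, nearest gene only and starts of 2.5 kb. Scripts ran in Python 3.11.15 with pandas 2.3.3, NumPy 2.4.6, Matplotlib 3.10.9 and SciPy 1.17.1, and were tested on simulated data.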

Additional observations from a re-analysis of the deposited data

Results flagged for a closer look

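At 4 of the genes the number of locus peaks moved in opposite directions in the groups set side by side, which drew attention to them. Pparg had 1 peak more with IL-4 than untreated in KO and 1 fewer in WT, a difference of 2 peaks between the genotypes. It also had 1 peak more in KO than in WT after IL-4 and 1 fewer untreated, again a difference of 2. Nr1h3 had 1 peak more with IL-4 in KO and 1 fewer in WT, a difference of 2. Both peaks lay within 1 kb of the start of another gene, Acp2 in KO and Madd in WT. The KO peak also covers the annotated upstream end of the Nr1h3 span. Ppard had 1 peak more in KO than in WT after IL-4 and 1 fewer untreated, a difference of 2. Fasn showed the same pattern in KO against WT, 1 more after IL-4 and 1 fewer untreated, a difference of 2. The untreated WT peak behind it scored 57.0 and lay at the start of Dus1l, while the Fasn start peak was in both untreated libraries. The share of all genes with such opposite moves was not computed. In the score classes of the Pparg and Nr1h3 peaks concerned, 40.8% to 83.9% of peaks were unmatched. The share was 34.3% and 24.7% for the Ppard peaks, 66.4% for the Dus1l peak and 6.80% for the Fasn start peak. None of these differences was tested, because each group held 1 library. The WT untreated list, the longest with 17339 peaks, enters each of the 5 contrasts, and its part in them was not tested.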

How the results depend on the processing

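Of 92 values recomputed under an alternative, 62 stayed within 1.5 times the reported count and 30 moved further. None moved further when a peak within 500 bp was counted as shared or when a start reached 2.5 kb, where start genes numbered 3 in KO IL-4, with 5 in untreated KO. With a score of 100 or more, counterparts below 100 count as absent. IL-4 in KO then left 0 gained of 1 member peak, beside 11.3% of all peaks. Lost were 3 of 4 (Nr1h2, Abca1 and Plin2), beside 41.8%, and in WT 7 of 8, beside 57.6%. Under the same minimum 1 was gained and 2 were lost in KO against WT after IL-4, and 1 was gained (Abca1) and 5 were lost untreated. Member loci with a peak then numbered 1 in KO IL-4, 4 in KO untreated, 2 in WT IL-4 and 5 in WT untreated, start genes 1, 2, 1 and 2, and other lipid loci 20 in KO IL-4, 26 in KO untreated and 20 in WT IL-4. Shares over all genes are not given for this minimum or for the cut lists, so such counts of genes are a description. The single gain with IL-4 in WT was then Srebf1 in place of Rxra. The Srebf1 peak has a WT untreated counterpart with a score of 82.85, which the minimum removed. With every list cut to its top 9930 peaks by score, 4 were gained with IL-4 in KO, 5 were gained and 6 lost in WT, and 5 were lost in KO against WT untreated. WT untreated then had 5 member loci and 3 start genes. Thus the excess of lost over gained peaks in WT, 11 against 1, came to 6 against 5 in lists of equal length. Of these gains, those at Nr1h3, Srebf1 and Plin2 had WT untreated counterparts that the cut removed. With 50 kb flanks 2 of 15 were gained and 17 of 30 lost with IL-4 in WT, beside 10.3% and 47.7% of all peaks. In KO against WT after IL-4, 7 of 16 were gained, beside 29.5%. KO IL-4 then had 8 member loci, beside 63.9% of all genes. Reciprocal overlap of 50% gave 2 of 8 gained with IL-4 in WT, beside 14.4% of all peaks. Nearest gene only gave 3 lost in KO against WT after IL-4. A higher minimum left fewer peaks, as did equal lists except in WT IL-4, and the part of this in the shifts was not tested. No paired analysis was possible because each group held 1 library. For the same reason no library could be left out of a group.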
